A study of Mus musculus with 931 samples.

Results

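The cells described here were 83 single α cells taken from the mouse pancreas at postnatal day 60 (P60), out of 917 single cells in the series. A cell was included when its column in the count table was named for α cells at P60 and its label gave Gcg-Cre; Rosa-RFP+ with no second hormone. The series followed α and β cells from before birth to P60 by single-cell RNA sequencing, to describe how both cell types develop. The 83 cells came in 5 labelled batches of 20, 16, 15, 16 and 16 cells. Batches 1 and 5 were sorted by flow cytometry (FACS), and batches 2, 3 and 4 were picked by hand. The mice carried Gcg-Cre and Rosa-RFP on a mixed C57BL/6, CBA/J and C3H background, and no treatment is given for any group. The cells were set beside those of other groups. The younger α cells were 45 cells at P15 and 44 cells at P18 from the same mouse line, in 5 batches, and the β cells were 129 cells at P60 in 5 batches. The β cells carried Ins1-RFP on a mixed C57BL/6 and C3H background, so cell type and mouse line cannot be told apart in that comparison. In Gcg-Cre; Rosa-RFP mice the glucagon gene promoter drives Cre, which switches the red protein on for good, so the label marks cells that expressed Gcg at some time and not only at collection. The labels name batches and not animals, so the replicate in every test below is a batch, and batch-to-batch spread may be technical.

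α cells are the endocrine cells of the islet that secrete glucagon when blood glucose is low and when amino acids are high, and glucagon makes the liver release glucose and take up amino acids. The hormone is cut from proglucagon, the product of Gcg, by the convertase Pcsk2, and it is stored with granins in dense-core granules. Irx1 and Irx2 are transcription factors of the α cell, while Pdx1, Nkx6-1 and Mafa act in the β cell.

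Each cell held 651466 to 1533936 reads in genes, with a median of 1180900, and 5084 to 9075 genes had at least 1 read. Summed over cells, a batch held 17456011 to 20278204 reads. Synthetic ERCC spike-in RNA took a median of 7.23% of all reads in batch 1 and 1.67%, 3.85%, 2.46% and 3.22% in batches 2 to 5. When every cell was thinned to 500000 gene reads, the median cell of a batch had 6245 ± 231 genes (SD, n = 5 batches) against 6157 ± 354 at P15 and P18 and 7087 ± 329 in β cells. The α and β batches did not overlap, and an exact two-sided permutation test over batches gave p = 0.00794, the smallest that 5 against 5 allows, and 0.0317 after Benjamini-Hochberg adjustment over 8 tests. The 10 largest genes of a cell held 54.1 ± 5.32% of its reads at P60, 54.1 ± 0.897% at P15 and P18 and 63.3 ± 1.80% in β cells, where the same exact test also gave 0.0317. Both adjusted values were 0.0635 without α batch 1 or without α batch 3. The share of reads from the cell's own hormone did not pass in either comparison, at 40.8 ± 6.24% for Gcg in α cells at P60, 38.6 ± 2.51% in the younger cells and 48.9 ± 2.07% for Ins1 with Ins2 in β cells (adjusted exact p = 0.635 and 0.0635). It passed against β cells when α batch 4 or α batch 5 was left out (adjusted exact p = 0.0423).

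The 3 hormone genes read most in these cells were Gcg, Ppy and Pyy, and the 250 bases upstream of each start site are given because the data below turn on how their levels relate from cell to cell. Gcg lies at chr2:62474530-62483650 (GRCm38). Ppy, which encodes pancreatic polypeptide, lies at chr11:102099930-102101319, and Pyy, which encodes peptide YY, lies beside it at chr11:102106676-102107832, 5356 bases away on the same strand. The upstream sequences are from RefSeq (GRCm38.p6, minus strand, 5′ to 3′), from chr2:62483654-62483903, chr11:102101320-102101569 and chr11:102107833-102108082, and capitals mark TATAAA or CCAAT on either strand (read as TTTATA and ATTGG on the other strand).
Gcg: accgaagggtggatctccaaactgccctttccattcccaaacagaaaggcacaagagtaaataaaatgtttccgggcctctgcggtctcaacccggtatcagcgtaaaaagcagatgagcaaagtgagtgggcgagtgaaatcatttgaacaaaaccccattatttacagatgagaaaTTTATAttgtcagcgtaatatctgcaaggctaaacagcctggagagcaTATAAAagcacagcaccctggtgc
Ppy: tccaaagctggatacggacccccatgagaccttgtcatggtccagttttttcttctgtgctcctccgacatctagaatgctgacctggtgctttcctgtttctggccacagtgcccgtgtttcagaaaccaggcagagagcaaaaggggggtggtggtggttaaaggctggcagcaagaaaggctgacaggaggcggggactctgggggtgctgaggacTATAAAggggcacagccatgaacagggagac
Pyy: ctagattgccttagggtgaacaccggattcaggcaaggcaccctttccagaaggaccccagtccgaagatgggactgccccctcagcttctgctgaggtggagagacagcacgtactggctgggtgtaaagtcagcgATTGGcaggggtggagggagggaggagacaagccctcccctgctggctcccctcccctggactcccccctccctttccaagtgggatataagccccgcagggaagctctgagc
TATAAA was in the Gcg and Ppy windows and in 12.4% of 32851 promoter windows, and CCAAT was in the Pyy window and in 33.8%. TAATTA (4.84% of windows) and TGACG (17.8%) were also searched on both strands and were in none of the 3.

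Gcg was the largest transcript of the α cell at P60. Its level per length was 504677 ± 65494 TPM, the length-corrected share of a library's transcripts (SD, n = 5 batches), with batch means of 412365, 468102, 519701, 578793 and 544425 TPM. Ttr, which encodes the transport protein transthyretin, followed among coding genes at 15970, 21964, 14526, 23034 and 24879 TPM. Batches 4 and 5 were highest for both genes, and batch 1 was lowest for Gcg while batch 3 was lowest for Ttr. Ppy was at 18253, 14495, 3956, 18397 and 17690 TPM and Pyy at 7977, 16483, 11188, 9599 and 11159 TPM. Batch 3 stood below the other 4 batches for Ppy, and batch 1 was lowest for Pyy. The fourth marker, Irx2, a homeobox factor of α cells, had 33.9, 33.7, 16.6, 26.6 and 36.8 TPM, so it was also lowest in batch 3. All 4 marker genes were thus read in every batch. Iapp, the amylin gene that β cells express strongly, was at 957 ± 436 TPM.

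Several of the 20 genes at the highest levels encode proteins of the secretory granule or enzymes that process prohormones. Resp18, a granule protein, was at 5863 ± 997 TPM, Chga, the granin chromogranin A, at 4382 ± 653 TPM, and Cpe, which trims the ends of cut prohormones, at 2672 ± 231 TPM. Pcsk2 was at 1479 ± 118 TPM, its helper Scg5 at 1998 ± 331 TPM and Pcsk1n, which encodes an inhibitor of the related convertase Pcsk1, at 2131 ± 771 TPM (SD, n = 5 batches each). Among the 20 largest genes were also Gpx3, a secreted glutathione peroxidase, at 5398 ± 947 TPM, Cst3, a protease inhibitor, at 2554 ± 462 TPM, and the membrane protein gene Tmem27 at 2567 ± 318 TPM. Reads assigned to Yam1, annotated as a noncoding RNA at chr17:39846958-39848788, gave 107708 TPM in batch 2 and 34081 to 39056 TPM in the other 4 batches. Whether they came from another RNA was not tested. TPM is a share, so the high value lowers the other genes of batch 2.

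**Figure D1:**
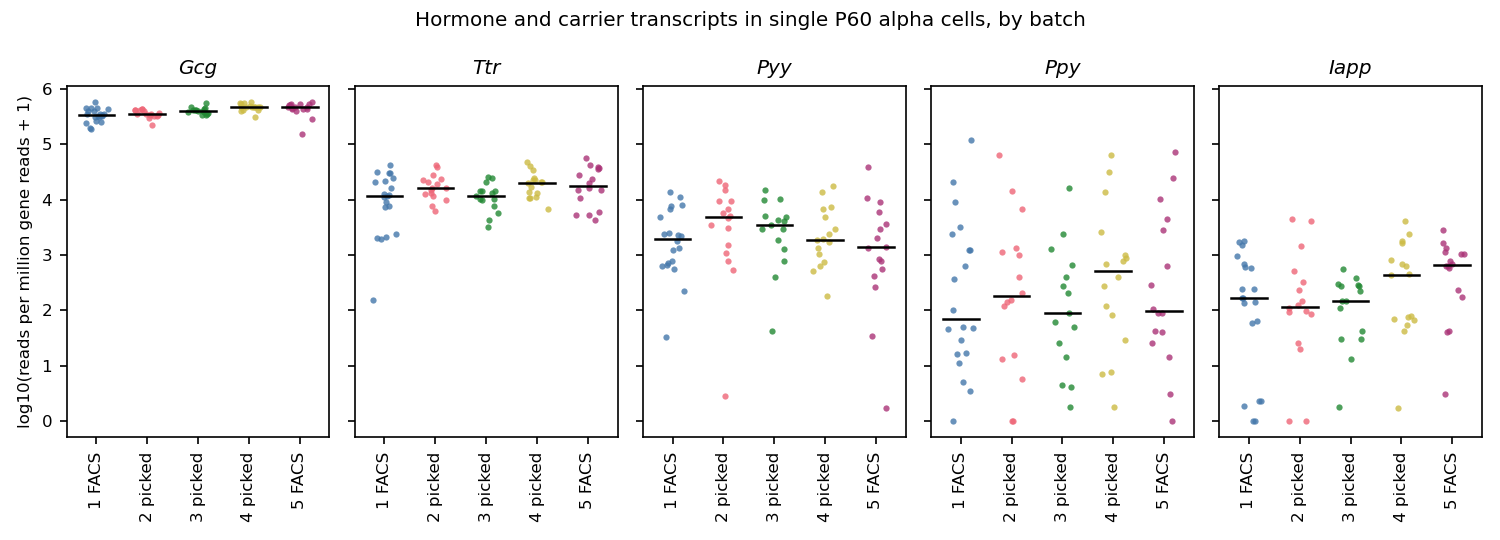
Single-cell CPM of Gcg, Ttr, Pyy, Ppy and Iapp in each of the 83 α cells at P60 (log10 of CPM plus 1), by labelled batch, with a bar at the batch median. Gcg varied little between cells, while Ppy ran from 0 to 116666 within the same batches.

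Ppy was spread very unevenly over the cells, and Gcg was not. In CPM, reads scaled to the same total of gene reads per cell, Gcg ran from 153591 to 578095 with a median of 410965, and the 5 cells with most held 8.46% of the summed CPM. Ppy had no read in 4 cells, a median of 153 CPM, quartiles of 20.1 and 1256 CPM and a highest value of 116666 CPM, and its 5 highest cells held 69.9% of the sum. The 11 cells above 10000 CPM of Ppy were found in all 5 batches, with 2, 2, 1, 3 and 3 cells in batches 1 to 5. The batch level of Ppy therefore rested on few cells, and the low batch 3 was the batch with 1 such cell. Pyy lay between, from 0.702 to 38739 CPM with a median of 2364 CPM and 28.8% of its sum in the 5 highest cells. The corresponding share was 15.4% for Ttr, 35.8% for Iapp and 10.4% for Chga.

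In each of the 5 batches the cell with most Ppy was also the cell with most Pyy. For Gcg it ranked 10 of 16 in batch 2 and 13 or lower in the other batches. These ranks use all gene reads, so the cell's own Ppy and Pyy reads lower its Gcg share. In batch 1 this cell had 116666 CPM of Ppy and 13967 CPM of Pyy, with 25.7% of its reads from Gcg, which was rank 16 of 20 cells. In batches 2 to 5 the values for Ppy were 64666, 16194, 62799 and 70961 CPM, and Gcg held rank 10 of 16, 13 of 15, 15 of 16 and 15 of 16, at 34.8%, 35.2%, 39.5% and 28.1% of reads. The batch 1 cell had 155 CPM of Ttr, the lowest of all 83 cells, and the cells of batches 2 to 5 had 6225, 4348, 10708 and 6058 CPM of Ttr, where the median over all cells was 14815 CPM. Within a batch, the Spearman correlation of Ppy with Pyy over cells was 0.586, 0.896, 0.446, 0.691 and 0.715 (n = 20, 16, 15, 16 and 16 cells, hormone genes left out of the denominator). That of Gcg with Ppy was 0.340, 0.381, 0.0607, −0.394 and 0.241 in batches 1 to 5. That of Gcg with Ttr ran from 0.206 to 0.505. These are descriptions of cells that share a library pool and a denominator.

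**Figure D2:**
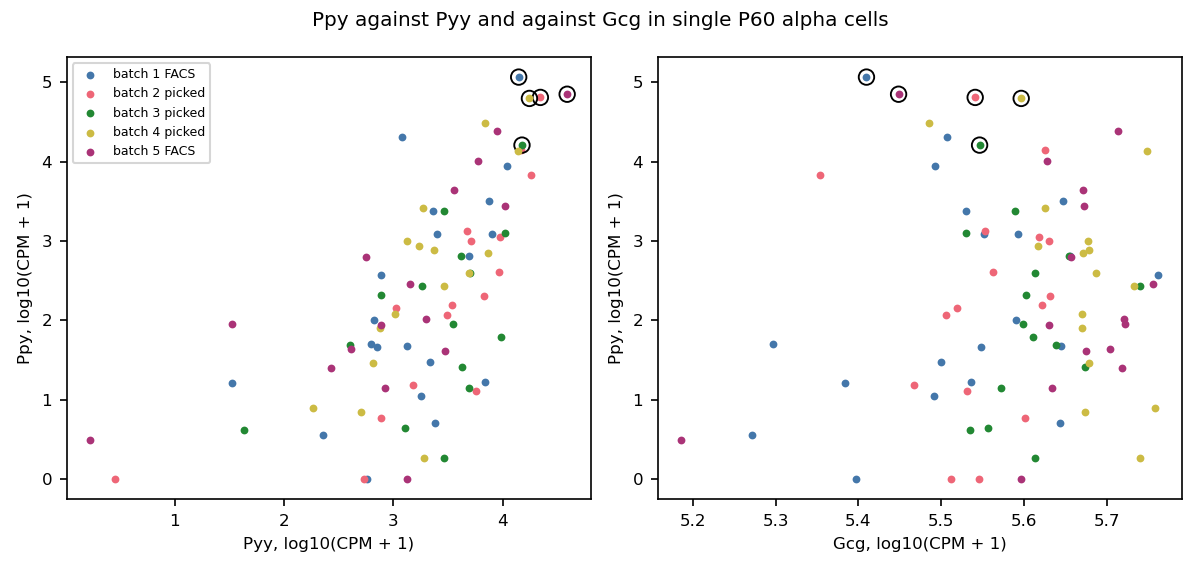
Ppy against Pyy (left) and Ppy against Gcg (right) in the 83 α cells at P60, as log10 of CPM plus 1, coloured by batch, with a ring around the cell with most Ppy in each batch. The ringed cell is also highest for Pyy in all 5 batches, and it lies at rank 10 or lower for Gcg.

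Reads of Ins1, Ins2, Sst and Ghrl were present at low levels. Ins1 had 24.9, 30.9, 119, 14.1 and 130 CPM and Ins2 42.1, 137, 236, 32.1 and 200 CPM in the 5 batches (normalised batch sums), against 172287 to 210253 and 398347 to 516172 CPM in β batches. Sst, the somatostatin gene of δ cells, had 13.5, 102, 74.4, 15.8 and 42.4 CPM. Batches 3 and 5 were highest for both insulin genes, and batch 2 was highest for Sst. The highest cell of batch 2 held 1119 CPM of Sst and that of batch 3 held 1151 CPM. The next cells of these batches held 96.0 and 103 CPM. Ghrl, the ghrelin gene, had 0, 0, 0.524, 0.121 and 0.109 CPM. Summed over marker lists, β cell genes had 512 to 1242 CPM, with Mafa and Nkx6-2 at 0. The PP (pancreatic polypeptide) cell genes, among them Ppy and Pyy, had 10711, 14276, 5639, 13628 and 12427 CPM, with Vip at 0. Ppy is on both the α and the PP list. In β batches the PP genes had 109 to 259 CPM. The δ cell genes had 435 to 684 CPM, mostly from Rbp4 and Sst, with Ghsr, Cckbr, Nts and Bche at 0. In β batches Nkx6-2, Ghsr, Cckbr and Nts were also at 0, and Mafa was at only 0.523 to 1.30 CPM. Acinar genes had 39.5, 44.6, 56.4, 178 and 165 CPM, with Cuzd1 at 0 of 12 genes, and they were thus higher in batches 4 and 5. Duct genes had 181 to 330 CPM, mostly from Krt7 and Spp1, and Spp1 was above Krt7 in batches 4 and 5, at 172 against 142 and 127 against 126 CPM. Endothelial, mesenchymal, immune, erythroid and Schwann lists each stayed at or below 19.3 CPM, with Cdh5, Kdr, Lum, Acta2, Ptprc, Cd52, Laptm5 and Sox10 at 0.

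The next question was which genes differed from cell to cell by more than library noise. The squared coefficient of variation (CV) over the cells of a batch was divided by a reference. This was the value of a curve fitted to the batch's spike-ins, read at the gene's mean level. All spike-ins together took a median of 1.67% to 7.23% of a batch's reads, so for Gcg the curve was extended beyond their levels. In batch 2, with 1.67%, it was also extended for Yam1 and Ttr, which were at 146826 and 21006 CPM. Which other genes lay beyond the largest spike-in was not examined. Of 1693 genes with a mean of at least 50 reads per cell in every batch, 35 (2.07%) had a log2 ratio above 1 in all 5 batches, and in β cells the same steps gave 61 of 1530. Ppy had the highest log2 ratio, 9.63 ± 0.90 (SD, n = 5 batches), with a CV of 2.78. It was followed by Gcg at 7.77 ± 2.06 with a CV of 0.306, Pyy at 7.10 ± 0.96 with a CV of 1.23 and Ttr at 6.88 ± 0.43 with a CV of 0.616. Gpx3, Iapp, Chga and Rgs4, a regulator of G protein signalling, had 4.38 ± 0.77, 4.31 ± 1.84, 4.03 ± 0.49 and 2.99 ± 0.46. The ratio of an abundant gene depended on the reference. Against the running median of genes of like level, the log2 ratio of Ppy was 5.91, that of Pyy 3.47, Iapp 3.29, Rgs4 2.72 and Ttr 1.57, while Gcg turned to −0.49, Tmem27 to −0.042, Malat1 to −0.83 and Yam1 to −1.41. By that reference 9 genes were above 1 in every batch. The genes Fos at 2.30, Kctd12b at 2.17 and Ddc at 2.02 also had high mean ratios, and the last 2 were picked out after their values were seen. Ddc makes dopamine from its precursor. Without batch 1, 52 genes were above 1 in every remaining batch.

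Of the 8 genes with the lowest ratios to the spike-in curve once ribosomal protein genes were set aside, 6 encode components of the mitochondrial ATP synthase or respiratory chain. Ratios below 0 mean less spread than the curve, so for these genes the curve is not the lower limit of library noise. The curve depends on mean reads only, and the part of transcript length was not tested. Atp5l had a log2 ratio to spike-ins of −2.74 ± 0.52, Atp5g2 −2.51 ± 0.42, Ndufs5 −2.40 ± 0.46, Cox7c −2.18 ± 0.75 and Uqcrb −1.86 ± 0.69, and the histone gene H3f3a was at −2.63 ± 1.02. Of 43 oxidative phosphorylation genes measured, 34 had a mean ratio below 0, with a median of −0.75, and over all 1693 genes 613 (36.2%) were below 0. Others of the list were above 0, among them Atp5b at 0.63, Sdha at 0.59 and Atp5a1 at 0.50. Ribosomal protein genes also lay among the lowest ratios, such as Rpl36 at −2.90 and Rpl35 at −2.54.

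**Figure D3:**
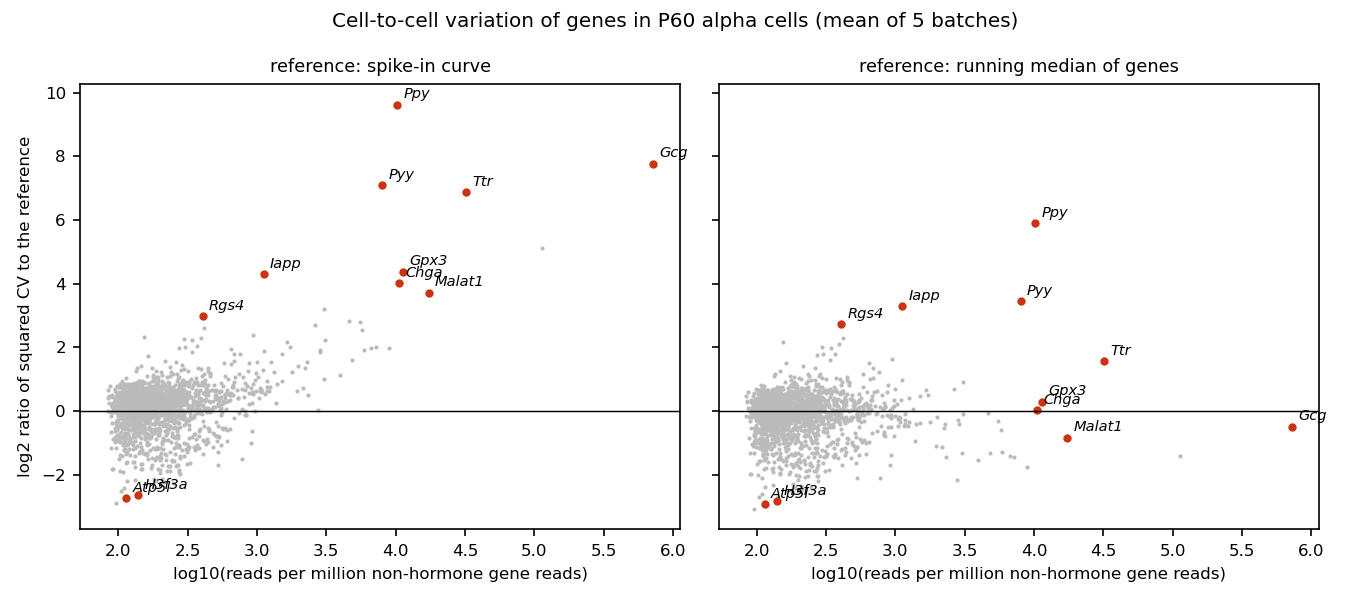
Log2 ratio of the squared coefficient of variation to its reference, averaged over the 5 batches, against mean level for 1693 genes in α cells at P60, with spike-ins (left) or the running median of genes (right) as reference. Ppy, Pyy, Iapp and Rgs4 lie above 0 in both panels, while Gcg moves from 7.77 to −0.49.

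Detection ran from genes read in every cell to genes read in very few. With cells thinned to 500000 reads, 417 genes had a read in all 83 cells, 1358 in at least 90% of them, 5568 in at least 50% and 7194 in fewer than 10%, and 21681 of 40824 listed genes had none. The same counts in the 129 β cells were 688, 2252, 6778, 7337 and 21419. Without thinning, 483 genes had a read in every α cell and 6223 in at least 50%. Gcg and Ttr were read in 100% of α cells, Pyy in 98.8%, Ppy in 91.6% (exact 95% interval 83.4 to 96.5%) and Irx2 in 77.1%. In β cells Gcg had a read in 10.9%, Ppy in 10.9% and Pyy in 14.7%. Irx2 had a read in 0 of 129 β cells, which allows a share of up to 2.33% (3 of 129 cells). The exact 95% interval for Irx2 reached 2.82%. Intervals and limits cover counting error only. Ins2 was read in 72.3% and Ins1 in 62.7% of α cells, at the low levels given above, and Nkx6-1 in 32.5%, Pdx1 in 7.23% and the β cell peptide gene Ucn3 in 2.41%, each of which was read in 100% of β cells.

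**Figure D4:**
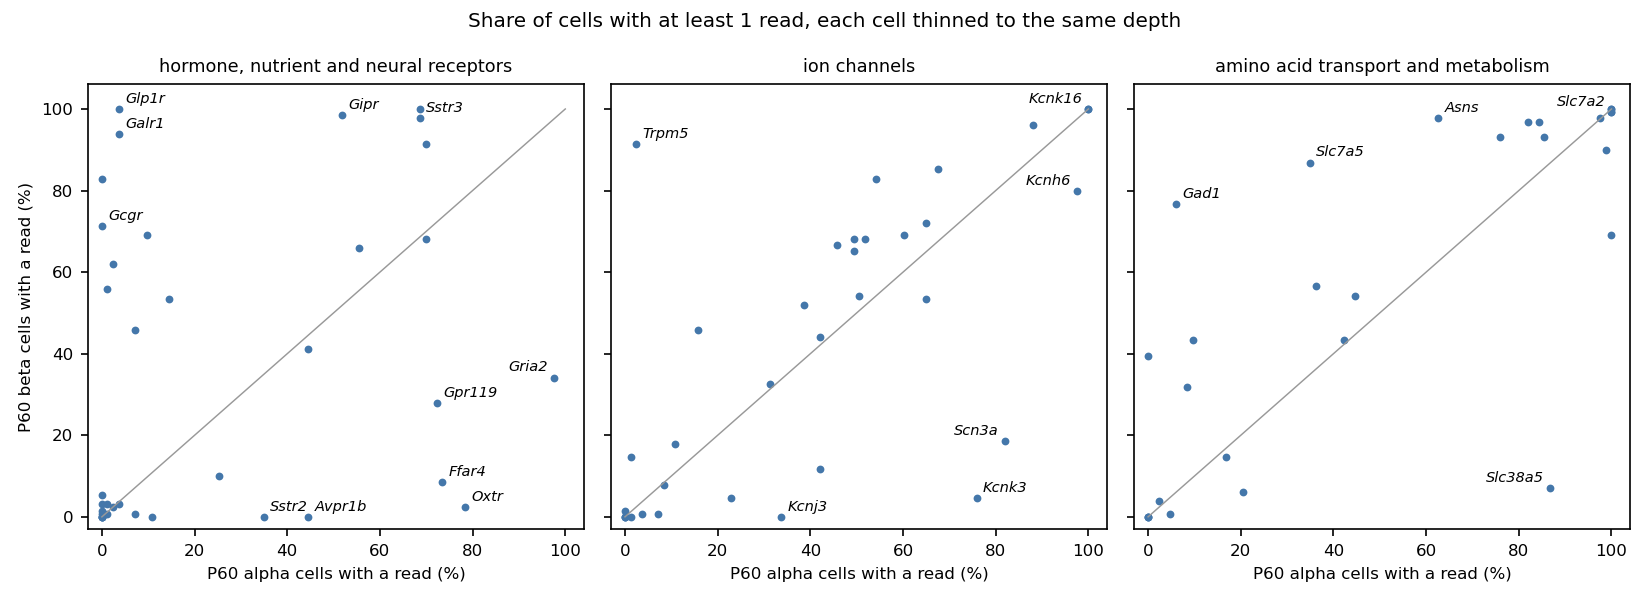
Percent of 83 α cells (x) and of 129 β cells (y) at P60 with at least 1 read after thinning to 500000 reads, for the genes of the receptor, ion channel and amino acid lists. Oxtr lies at 78.3% against 2.33%, and Glp1r at 3.61% against 100%.

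The division genes named here had at least 1 read in a minority of these cells and 10 or more reads in at most 5. In a wider list of 33 proliferation genes, 3 had a read in at least 50% of cells after thinning and 19 in fewer than 10%. Mki67, a marker of dividing cells, had a read in 4 of 83 cells, Cdk1 in 5, Ccna2 in 8, Ccnb1 in 10, Top2a in 16 and Birc5 in 22, without thinning. Mki67 had 10 or more reads in 1 cell, with 81 reads in that cell, and Top2a and Cdk1 also in 1 cell each. Ccna2 had 10 or more reads in 5 cells, and Birc5 and Ccnb1 in 0 of 83, which allows a share of up to 3.61%. The counts in the 129 β cells were 3 for Mki67, 2 for Top2a, 1 for Cdk1, 7 for Ccna2 and 1 each for Birc5 and Ccnb1.

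α cells at P60 differed from α cells at P15 and P18 in few genes. Batch sums were tested with edgeR's quasi-likelihood test, and a gene was called at a Benjamini-Hochberg adjusted p under 0.05. Of 18537 genes, 25 (0.135%) were called, 8 higher (0.0432%) and 17 lower (0.0917%) at P60, where 1931 had an unadjusted p under 0.05 and DESeq2 called 405. The number of edgeR calls was 0 when only the 10 batches of these groups were fitted (1051 at an unadjusted p under 0.05), and the calls below come from a fit that shares its spread with the other stages. It was 14, 16, 14 and 13 without P15 batch 1, P15 batch 2, P60 batch 4 and P60 batch 5, and 53 without P18 batch 1.

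Mlxipl, the glucose-responsive factor ChREBP, had 12.5, 5.98, 7.65, 7.41 and 19.8 CPM in the P60 batches and 41.7, 32.9, 37.7, 54.3 and 53.0 CPM in the younger ones. All P60 batches were below all younger batches, and it fell by 1.99 ± 0.27 on the log2 scale (SE, edgeR adjusted p = 0.000142). Pabpc1, which binds the poly(A) tail of mRNA, had 73.0, 63.8, 47.4, 64.6 and 70.9 CPM against 125, 131, 109, 127 and 87.2 CPM. The groups again did not overlap, as in 1.06% of all genes tested, and it fell by 0.86 ± 0.13 (edgeR adjusted p = 0.00197). Both calls held when any 1 of the 10 batches was left out. Itm2c, a membrane protein gene, had 694, 708, 793, 1016 and 832 CPM against 353, 440, 515, 527 and 394 CPM. Every P60 batch was higher, and it rose by 0.87 ± 0.15 (edgeR adjusted p = 0.00359, and 0.0594 without P15 batch 1). Among the FACS-sorted batches alone none of the 9 named calls was made, and among the hand-picked ones Mlxipl was.

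Ghrl had 22.2, 28.8, 13.9, 13.9 and 32.1 CPM in the younger batches, above all P60 batches given earlier, and it fell by 7.69 ± 1.59 on the log2 scale (edgeR adjusted p = 0.0367). Per3, a component of the circadian clock, had 12.4, 15.6, 14.5, 6.80 and 4.58 CPM at P60 against 85.5, 62.6, 64.2, 42.7 and 25.5 CPM, and fell by 2.37 ± 0.50 (edgeR adjusted p = 0.0367). The Ghrl and Per3 calls were each lost when 1 of 5 batches was left out, which were P15 batch 1 and P60 batches 1, 4 and 5 for both, with P60 batch 2 for Ghrl (adjusted p up to 0.0880) and P15 batch 2 for Per3 (up to 0.115). Tmem27 had 2037, 2784, 2897, 3571 and 2807 CPM at P60 and 1773, 1548, 1780, 2113 and 1928 CPM before, so P60 batch 1 overlapped the younger batches. It rose by 0.65 ± 0.14 (edgeR adjusted p = 0.0367), which was lost without P15 batch 1 or 2, P18 batch 1 or 3, or P60 batch 3, 4 or 5 (adjusted p 0.0518 to 0.258). The other named calls were Exoc5 and Spint2, which fell by 0.99 ± 0.21 and 0.43 ± 0.09, and Abhd12, which rose by 0.96 ± 0.21. Exoc5 was lost without P15 batch 2, P18 batch 3 or P60 batch 1, 3, 4 or 5 (adjusted p up to 0.334). Spint2 was lost without any 1 batch except P18 batch 1 (up to 0.164), and Abhd12 without P15 batch 1 or 2, P18 batch 2 or 3 or P60 batch 2, 4 or 5 (up to 0.216).

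Most gene lists had no called member between these stages, where 0.135% of all genes were called. Ghrl was the 1 call among 21 hormone genes tested, Mlxipl the 1 among 25 α cell and islet factors and Tmem27 the 1 among 17 α cell surface and secreted genes. The other 12 lists had none, of 34 receptors, 34 ion channels, 48 oxidative phosphorylation genes, 21 endoplasmic reticulum folding genes and the rest. Over all genes tested the median log2 difference was 0.06, and the list medians lay between −0.09 and 0.25 except for 17 immediate early and heat shock genes at −0.69 and 33 proliferation genes at −2.60. In the proliferation list Mki67 had a mean of 1.17 CPM at P60 against 16.0 CPM, with a log2 difference of −2.78 (edgeR adjusted p = 0.485). The younger batches differed, with 57.4 and 21.0 CPM of Mki67 at P15 and 0, 1.48 and 0.0746 CPM at P18, beside 0, 0.567, 0.314, 4.98 and 0 CPM at P60. Top2a likewise had 117 and 58.2 CPM at P15, at most 0.522 CPM at P18 and at most 1.47 CPM at P60. At P60, Gcg, Ppy, Pyy and Ttr did not pass, with log2 differences of −0.03, −0.11, −0.62 and −0.50 (edgeR adjusted p = 1, 1, 0.940 and 0.536). The marker lists of other cell types held 36.3 to 50.6 CPM of acinar genes at P15 and P18, against 39.5 to 178 CPM at P60, and their part in these differences was not tested.

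α and β cells of the same age differed in many genes. Of 18537 genes, 2399 (12.9%) were called by edgeR, 1097 higher (5.92%) and 1302 lower (7.02%) in α cells, with a median log2 difference of 0.02 over all genes. The number was 892 among FACS-sorted batches alone and 1256 among hand-picked ones alone. The hormone, factor and marker lists below include genes by which α and β cells are known to differ.

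Among 21 hormone and peptide genes tested, 5 were higher and 6 lower in α cells, against 5.92% and 7.02% of all genes, with a median log2 difference of −0.58. Gcg was higher by 13.5 ± 1.97 on the log2 scale (SE, edgeR adjusted p = 3.06e-06), Ppy by 10.4 ± 1.43 (adjusted p = 1.10e-06) and Pyy by 9.63 ± 1.18 (adjusted p = 1.24e-07). β batch 3 held most of the few β reads, with 244 CPM of Gcg, 22.0 of Ppy and 23.2 of Pyy, and without it the differences were 19.9, 13.1 and 11.0. Sst was higher at 49.6 ± 38.2 against 3.38 ± 2.79 CPM (edgeR adjusted p = 0.0266, over 0.05 without α batch 2 or β batch 1, 3, 4 or 5, at most 0.0683). In α batches 2 and 3 most of the Sst came from the highest cell of each. Vgf, a neuropeptide precursor gene, was the fifth at 16.4 ± 14.1 against 2.80 ± 2.90 CPM (log2 difference 2.54, adjusted p = 0.0200). It was at 1.76 without α batch 5 (adjusted p = 0.138), at 2.21 without β batch 4 (0.0572) and at 3.41 without β batch 1. The insulin genes Ins1 and Ins2 were lower by 11.6 ± 0.70 and 11.8 ± 1.01, Iapp by 6.73 ± 0.46 and Ucn3 by 9.97 ± 0.78 (−11.3 without α batch 5). Pdyn, the prodynorphin gene, had 1 read in α cells and 32.6 ± 30.3 CPM in β cells. Npy was lower with 0.327 ± 0.702 against 10.8 ± 22.6 CPM, a call that was lost without β batch 3 (edgeR adjusted p = 0.741) and without each of α batches 1 to 4 (at most 0.108), and its log2 difference of −4.94 was −9.03 without α batch 5 and turned to 0.88 among FACS-sorted batches.

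The transcription factor genes Irx2 and Irx1 had reads in every α batch and none in β cells. Of 25 α cell and islet factors, 11 were higher and 2 lower in α cells, against 5.92% and 7.02% of all genes. The median log2 difference was 0.44. Irx2 had 59.7, 64.2, 30.1, 60.9 and 78.6 CPM, and no read in any β batch, so it was at least 2890-fold higher, counting β cells as holding 3 reads in all. Irx1 had 8.30, 2.90, 3.04, 2.37 and 3.11 CPM, again with no β read. Batch 3 was lowest for Irx2, and batch 1 was highest for Irx1. Etv1, an ETS factor, and Smarca1, a chromatin remodeller, were higher by 5.13 ± 0.58 and 4.37 ± 0.38, and Pou3f4 by 6.92 ± 0.84. Isl1, Foxp1 and Meis2 were higher by smaller amounts, 0.77 ± 0.20, 1.38 ± 0.23 and 0.79 ± 0.19. The general islet factors Neurod1, Pax6, Nkx2-2 and Rfx6 were not called, at differences of −0.35, −0.40, −0.04 and −0.15 (edgeR adjusted p = 0.131, 0.0662, 0.984 and 0.793). Insm1 was lower by 1.69 ± 0.26, and Mlxipl, already lower than in younger α cells, was lower than in β cells by 4.93 ± 0.30 with 10.7 ± 5.66 against 320 ± 33.4 CPM (edgeR adjusted p = 4.70e-15).

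Of 7 β cell factors, 5 were lower in α cells and none higher, against 7.02% and 5.92% of all genes. The median was −3.84. Nkx6-1 was at 6.22 ± 3.33 against 88.6 ± 15.2 CPM lower by 3.84 ± 0.31, and Pdx1 had 2.51, 3.90, 0.890, 3.22 and 0 CPM against 166 to 215 CPM, lower by 6.50 ± 0.83. Mnx1 had no read in α cells and 7.32 ± 4.24 CPM in β cells (at least 151-fold lower), and Mafa none against 0.777 ± 0.323 CPM (at least 18.3-fold lower). Bhlha15 was lower by 2.18 ± 0.71 (edgeR adjusted p = 0.0350), which was lost without any of 6 batches (α batch 1, 2, 3 or 5, or β batch 1 or 4; adjusted p up to 0.0867).

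**Figure D5:**
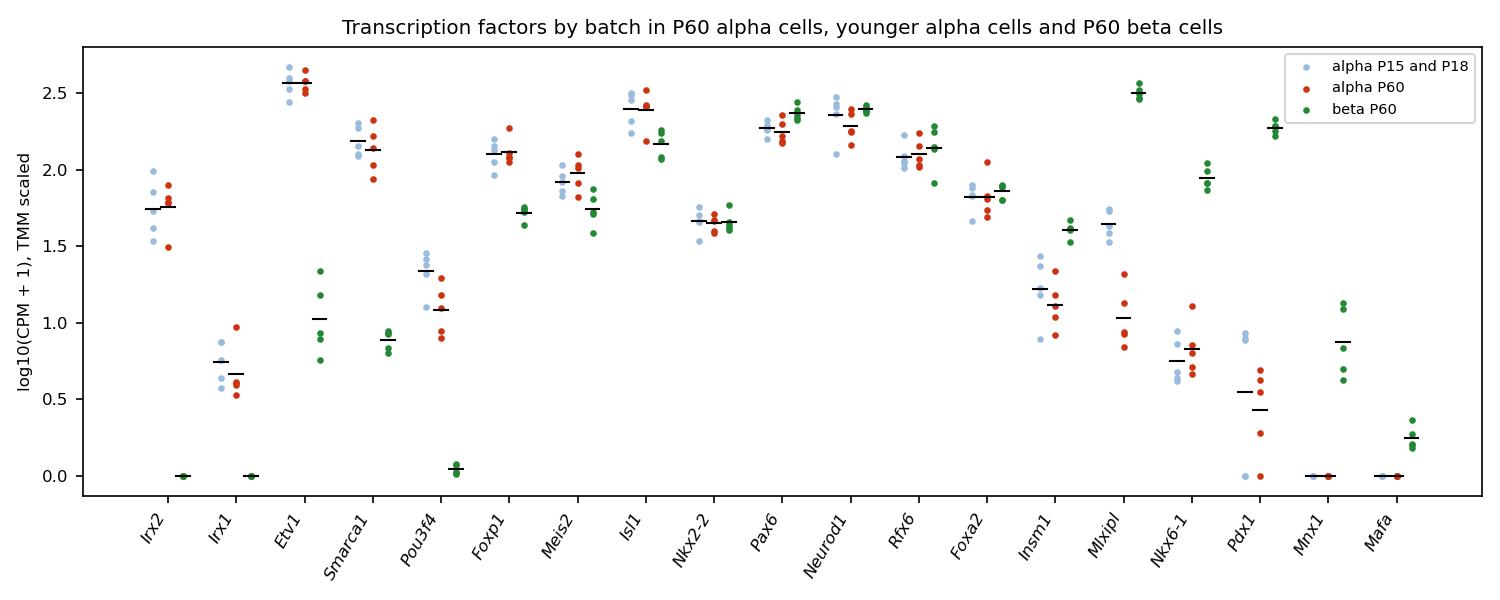
Levels of transcription factors by batch in α cells at P15 and P18, α cells at P60 and β cells at P60, as log10 of CPM plus 1, with a bar at the mean of the log values. Irx2 and Irx1 are at 0 in all β batches, and Mlxipl falls from α cells at P15 and P18 to α cells at P60.

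Of 17 α cell surface and secreted genes, 12 were higher and none lower, against 5.92% and 7.02% of all genes. The median log2 difference was 3.55. Ttr had 13288, 21006, 12390, 25942 and 25598 CPM in α cells and 584 to 1216 CPM in β cells, a difference of 4.46 ± 0.31 (edgeR adjusted p = 1.37e-13). Slc38a5, a glutamine transporter, had 94.9, 189, 96.7, 284 and 143 CPM against 0.0871 to 1.99 CPM, a difference of 7.27 ± 0.69, and the glutamate receptor subunit gene Gria2 was higher by 3.67 ± 0.81 (adjusted p = 0.00125). Higd1a, a mitochondrial protein gene, had 82.5, 228, 169, 164 and 190 CPM in α cells and 2 reads in all β cells together. Rgs4, uneven among α cells, was also higher than in β cells by 3.55 ± 0.84 (adjusted p = 0.00253). Outside the lists, Gpx3 was higher by 6.54 ± 0.59 at 6920 ± 1940 against 73.6 ± 49.4 CPM, and Edn3, the endothelin 3 gene, and Egflam had 183 ± 41.6 and 55.4 ± 30.9 CPM in α cells, with 1 and 0 reads in β cells. Rbp4, the retinol carrier listed here as a δ cell marker, was at 522 ± 120 against 9.32 ± 5.70 CPM and was read in 100% of α cells. The largest drops were Frzb, a secreted Wnt inhibitor, with no read against 338 ± 38.2 CPM (at least 7905-fold lower), Sytl4, which docks granules, with 2 reads against 382 CPM, and Fam151a, Mreg, Th and Gpr158, each with no read in α cells.

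Receptors differed in both directions, with a median of −0.67. In α cells 8 of 34 were higher and 10 lower, against 5.92% and 7.02% of all genes. Oxtr, the oxytocin receptor, had 60.2, 147, 214, 294 and 116 CPM in α cells and at most 3.98 CPM in a β batch, a difference of 7.61 ± 1.26 (edgeR adjusted p = 3.88e-05), or 10.9 without β batch 3. Avpr1b, a vasopressin receptor, had 42.4, 30.0, 56.3, 65.3 and 36.4 CPM and Sstr2, a somatostatin receptor, 80.8, 36.9, 29.1, 8.99 and 13.6 CPM, both with no β read (at least 2283-fold and 1789-fold higher). No α and β batch overlapped for these 3, as in 12.1% of all genes tested, and Sstr2 varied most between α batches, with batch 1 highest. The lipid receptors Ffar4 and Gpr119 were higher by 4.78 ± 0.61 (adjusted p = 2.58e-07, and 5.56 without β batch 1) and 2.98 ± 0.79 (adjusted p = 0.00823). Glp1r, the receptor for the other main product of proglucagon, was at 0.344 ± 0.579 against 218 ± 75.1 CPM, lower by 9.29 ± 0.72 (adjusted p = 2.92e-11, and −11.3 on the log2 scale without α batch 5). The glucagon receptor gene Gcgr, chosen after its values were seen, had no read in α cells and 56.6 CPM in β cells (at least 1410-fold lower).

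The 34 ion channel genes had a median of 0.03. Of them, 5 were higher and 2 lower in α cells, against 5.92% and 7.02% of all genes. Abcc8, the sulfonylurea-binding subunit of the ATP-sensitive potassium channel, was not among them and had 385, 660, 730, 690 and 654 CPM in α cells and 507 to 833 CPM in β cells, a difference of −0.10 (edgeR adjusted p = 0.747). The batches overlapped. The background potassium channel gene Kcnk3 was higher by 5.78 ± 1.04 at 46.2 ± 26.0 against 0.776 ± 0.743 CPM, and Kcnh6 by 1.26 ± 0.25, while Kcnk16 was not called at 0.14. Trpm5, a calcium-activated cation channel, was lower by 7.99 ± 0.88 (−11.6 without α batch 5), with 0.433 ± 0.917 against 104 ± 24.7 CPM.

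Genes of glucose and amino acid handling were called in both directions, where 5.92% of all genes were higher and 7.02% lower. Among 26 glucose genes, 3 were higher and 5 lower, with a median of −0.23. Slc2a2, the main glucose transporter of mouse β cells, and G6pc2, a glucose-6-phosphatase subunit, were lower by 8.61 ± 0.99 and 7.03 ± 0.59, and Slc2a2 stood at −9.30 and −9.40 without α batch 2 or 4. Pkm and Aldoa, enzymes of glycolysis, were lower by 1.15 ± 0.13 and 0.81 ± 0.13, and Tpi1 and Pgam1 were not called at 0.12 and −0.10. Pdk4, a kinase that inhibits pyruvate dehydrogenase, had 211, 171, 164, 248 and 242 CPM in α cells and 3 reads in all β cells together. Hexokinase 1, Hk1, named here after its values were seen, was at 29.2 CPM in α cells with no β read (at least 1410-fold higher). Among 27 amino acid genes, 6 were higher and 4 lower, with a median of −0.04. Slc7a2, a transporter of arginine and lysine, had 961, 629, 600, 830 and 756 CPM against 129 to 237 CPM, a difference of 2.21 ± 0.28 (edgeR adjusted p = 1.80e-07). Its batches did not overlap between the cell types.

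Secretory machinery was lower in α cells in more members than it was higher, where 5.92% of all genes were higher and 7.02% lower. Of 19 prohormone processing and granule genes, 3 were higher and 8 lower, with a median of −0.13. Pcsk2 was higher by 1.03 ± 0.11 (edgeR adjusted p = 1.23e-08) at 5327, 4941, 4965, 6249 and 5523 CPM against 2157 to 3008 CPM, and Pcsk1n by 1.66 ± 0.17. Chga was lower by 1.02 ± 0.16 at 6397 ± 743 against 13011 ± 351 CPM, Scg2 by 2.68 ± 0.26, and Ero1lb, an oxidase for protein folding, by 4.27 ± 0.26. Of 25 exocytosis genes, 2 were higher and 9 lower, with a median of −0.17. Syt13, Napa and Rab3a were lower by 0.85 ± 0.14, 0.75 ± 0.12 and 1.03 ± 0.20, and Vamp2, part of the complex that fuses granules with the membrane, was not called at −0.17. Of 21 endoplasmic reticulum genes, 17 were lower and none higher, with a median of −0.95. P4hb, a disulfide isomerase, had 475, 550, 515, 673 and 610 CPM against 994 to 1210 CPM, lower by 0.98 ± 0.11 (adjusted p = 3.77e-08). The chaperone Hspa5 was lower by 0.84 ± 0.19 and Sdf2l1 by 2.33 ± 0.30, and Hsp90b1 was not called at −0.37 (adjusted p = 0.107).

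In the remaining lists some members were called. Of 48 oxidative phosphorylation genes, 8 were higher and 4 lower, against 5.92% and 7.02% of all genes, with a median of 0.14, including Cox7c higher by 0.84 ± 0.14. Of 19 genes of antigen presentation and interferon response, Tapbp alone was called, lower by 0.79 ± 0.21 (edgeR adjusted p = 0.00836), and the median was 0.18. Of 17 immediate early and heat shock genes, 1 was higher and 2 lower, with a median of −0.41, and Fos had 481, 56.5, 185, 235 and 275 CPM in α cells. The lower genes were Dnajb1 and Hspa1b, and both calls were lost without β batch 2 (log2 −0.60 and −4.59, edgeR adjusted p = 0.265 and 0.108). Dnajb1 was also lost without α batch 2 or 4 and Hspa1b without α batch 1, 3, 4 or 5, and Hspa1b was at −9.72 without α batch 2. Of 33 proliferation genes, Rrm2 alone was called, lower, with 1 read in α cells, and the median was −0.77. With a group of 3 reads or fewer put at the floor of 3 reads, the median against β cells was −0.17 for hormones, −0.62 for receptors, −0.62 for proliferation genes and 0 for ion channels and for amino acid genes, and as given for the other 10 lists.

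Marker genes of other cell types moved with this comparison. Acinar genes summed to 39.5 to 178 CPM in α batches against 7.23 to 17.8 CPM in β batches. The mesenchymal gene Col1a2 was higher by 6.54 ± 1.48 at 0, 0.0629, 14.3, 12.3 and 9.16 CPM in α batches, or by 10.1 without β batch 3 and 5.70 without α batch 5. Duct genes summed to 181 to 330 against 254 to 397 CPM, where Krt7 was lower by 0.96 ± 0.17. Their part in the other differences was not tested.

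No gene was called between hand-picked and FACS-sorted α cells at P60. Between the 3 hand-picked and the 2 sorted batches, edgeR called 0 of 13487 genes (0%), with 568 at an unadjusted p under 0.05, and DESeq2 called 38, 27 higher and 11 lower in hand-picked cells.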

How the data were processed

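Single-cell libraries were made with Smart-seq2, per the labels' protocols. The deposited values are raw read counts per gene and TPM per cell. The submitters' processing notes name TopHat2 2.1.0, HTSeq 0.6.0 and DESeq 1.20.0 and the builds GRCm38 and mm10, without their roles, and the strand setting is not given in the sources used here. Reads of overlapping genes and of the near copies Ins1 and Ins2 may therefore be split between them. There are no molecular identifiers. Deposited TPM equals the deposited counts per length, scaled, in 83 of 83 cells; TPM was averaged over the cells of a batch and used to compare genes. Of the count columns, 866 unselected cells were used and 51 were not, and no count column was identical to another.

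Counts were summed over the cells of each labelled batch, which was the replicate. The 45 batches of 13 groups entered 1 fit in edgeR 4.0.16 (R 4.3.3, filterByExpr, TMM, quasi-likelihood test) with collection method as covariate, and DESeq2 1.42.0 was an alternative. CPM of batches are TMM-normalised, and CPM of single cells are not. Library summaries were tested by exact permutation over all splits of the batches (Python 3.11.15, numpy 2.4.6). The exact intervals, the Spearman correlations and the fit of the spike-in curve used scipy 1.17.1. Detection was read after thinning to 500000 gene reads. Variation was set against a curve fitted in each batch to the ERCC spike-ins with a mean of at least 5 reads. These were 36 to 50 of the 92. The tests were tried on simulated counts. A planned summary of mitochondrial transcripts was left out because no such gene is in the table, which leaves 8 tests where 10 were planned.

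Genes were named by rule: the 20 highest in TPM, the 12 most and 8 least variable, the 6 largest called rises and falls per comparison at 20 CPM or more without overlap of batches, all hormone genes, factors and markers, and 4 members with the highest TPM and the 2 smallest called p per other list, with ribosomal protein, predicted and pseudogenes skipped among the highest levels, the variation and the largest changes. A few genes chosen this way are not reported here. The members and lists were chosen with earlier results of these data known. Alternatives were another tool, scaling, filter, denominator, depth, reference, sample set and each batch left out.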

Additional observations from a re-analysis of the deposited data

Results flagged for a closer look

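Of 34 values looked at over the 5 α batches at P60, 2 had 1 batch far from the other 4, where chance flags about 1 in 20 groups. Ppy, the pancreatic polypeptide gene, was at 1299 CPM in batch 3 and at 6839 to 8545 CPM in the others. Ghrl, the ghrelin gene, was at 0.524 CPM in batch 3 and at 0 to 0.121 CPM in the others. All Ghrl of batch 3 came from 1 cell with 6.90 CPM. After thinning, Ghrl had a read in 3 of 83 cells.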

How the results depend on the processing

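For α cells at P60 against P15 and P18, edgeR called 25 genes, DESeq2 405, the fit of the 10 batches of these groups alone 0, FACS-sorted batches alone 9, hand-picked ones 22, and fits without 1 batch 13 to 53. Against β cells the 2399 calls became 892 in FACS-sorted batches, 1256 in hand-picked ones and 2016 to 2194 without 1 batch, and the difference of Npy turned to 0.88 in FACS-sorted batches. Of 101 named calls against β cells, 90 held in every fit without 1 batch. Between hand-picked and sorted cells edgeR called 0 genes and DESeq2 38. No pairing of same-numbered batches was used in the main fit. Their deviations correlated at −0.027 to 0.023, which neither shows nor excludes a shared source. With the number as a replicate block, 0 genes were called against P15 and P18 (707 at an unadjusted p under 0.05). Against β cells that fit called 1854.

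Without 1 α batch, the gap to β cells was −902 to −776 genes, −10.4 to −7.39 points for the 10 largest genes, −9.70 to −6.39 for the own hormone and 0.936 to 2.33 for spike-ins, and the gap to P15 and P18 for the 10 largest genes ran from −1.31 to 1.73. With hormone genes out of the denominator, Gcg was at 720647 and Ppy at 10236 CPM. At 10 reads or more, 266 genes were found in every cell and 3241 in at least 50%. With the running median as reference, 9 genes varied above 1 in every batch, and Gcg, Yam1, Tmem27 and Malat1 turned to −0.49, −1.41, −0.042 and −0.83. Depth and the number of batches limit which smaller differences could be called. The causes of these shifts were not tested.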
